A study of Mus musculus with 6 samples.

Results

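Of the peaks of trimethylated lysine 27 on histone H3 (H3K27me3) called in mouse embryonic fibroblasts rescued with EED R302S, 948 met EZH2 and 278 did not, and 561 met a peak of EZH2 from cells rescued with wild-type EED and also reached outside it. These extending peaks made up 45.8% of the H3K27me3 list (95% Wilson interval 43.0% to 48.6%) and 59.2% (56.0% to 62.3%) of the 948 that met any EZH2 peak. They were chosen by position: a peak was counted when it shared at least 1 bp with an EZH2 peak and had at least 1 bp outside all EZH2 peaks. The other 387 peaks that met EZH2 lay wholly inside it. Since the positions in both lists selected the extending peaks, their overlap and reach are given here as a description with no test.

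The study profiled fibroblasts by chromatin immunoprecipitation and sequencing, with 6 samples from 3 forms of EED and 2 antibodies, 1 library each. All came from a single clone in which floxed EED had been deleted with Cre from a lentivirus, and into which wild-type EED, R302S or Y365A was then brought by stable lentiviral expression. The EZH2 sites used here are those of the wild-type rescue, and the H3K27me3 sites are those of the R302S rescue. The other 4 samples, among them EZH2 in the R302S rescue and H3K27me3 in the wild-type rescue, were not analysed here. Antibody and EED form therefore changed together between the lists and cannot be told apart, and whether the reach described here differs from that with wild-type EED was not tested.

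Polycomb repressive complex 2 (PRC2) places H3K27me3 through its catalytic subunit EZH2 and keeps developmental genes silent. Its subunit EED binds the trimethylated product, and this binding stimulates the enzyme, a loop through which the mark can be carried from the sites where the complex is recruited into neighbouring chromatin. EED R302S belongs to the study's question of how the mark is laid down when that stimulation is impaired.

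The lists held 3449 EZH2 peaks and the H3K27me3 peaks above as positions on the mouse build mm9, with no height, score or read depth. All positions fell on bins of 200 bp, which is the smallest reach that could be seen. The narrowest peak was 800 bp for EZH2 and 400 bp for H3K27me3. The smallest gap between peaks was 2200 bp for EZH2 and 1200 bp for H3K27me3, so the lists had different limits. With H3K27me3 peaks brought to the EZH2 limits, 554 peaks extended and their median length outside EZH2 was 1600 bp. All positions below are mm9, counted from 1, and left and right mean the lower and the higher coordinate.

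Most extending peaks reached only a short way out of EZH2, and a small group reached far. The median length outside EZH2 was 1400 bp per peak over the 561 peaks, with a 95% interval of 1200 to 1800 bp for the median. The middle 50% of peaks lay between 600 and 3200 bp, and the extremes were 200 and 17800 bp. The median peak had 27.3% of its width outside, and 84 peaks (15.0%) had more than 50% outside. Together the 561 peaks spanned 4.18 Mb, of which 2.92 Mb lay inside EZH2 peaks and 1.26 Mb (30.2%) outside. Of the outside length, 0.580 Mb lay to the left of EZH2, 0.587 Mb to the right and 95.6 kb between EZH2 peaks that 1 H3K27me3 peak joined. Neither direction of the chromosome was favoured in the sum.

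The long tail held much of this length. In 56 peaks (9.98% of the extending peaks; 5.91% of all 948 that met EZH2) more than 5 kb lay outside, and these held 33.2% of all the outside length. Of these 56 peaks, 51 extended on both sides, 3 on a single side and 2 only between EZH2 peaks, and 14 bridged EZH2 peaks. At the other end, 184 peaks reached out by 200 to 800 bp in all and held 6.94% of the outside length. The plot of length outside EZH2 shows the single-sided peaks gathered at short lengths and the long tail made mostly of peaks that passed EZH2 on both sides. Length outside sums the reach on both sides, so the definition favours such peaks in the tail.

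**Figure D1:**
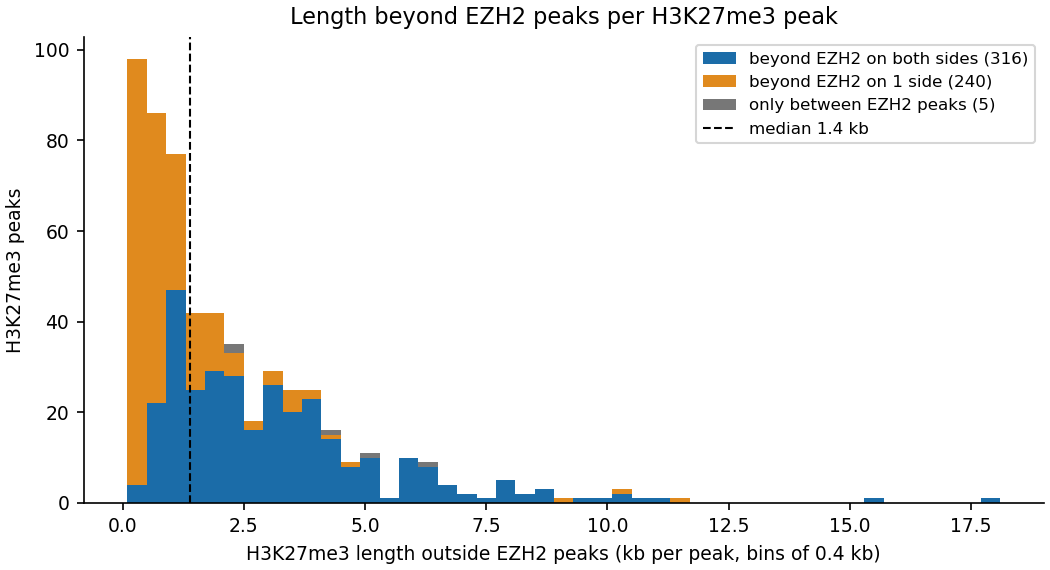
Histogram of the H3K27me3 length outside EZH2 peaks (kb per peak, bins of 0.4 kb) for the 561 extending peaks, stacked by whether the peak passes EZH2 on both sides (316), on 1 side (240) or only lies between EZH2 peaks (5). The dashed line is the median of 1.4 kb, and the longest value is 17.8 kb.

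Extension on both sides was the more common form when a reach of 200 bp counted as a side. It was seen in 316 peaks (56.3%, interval 52.2% to 60.4%), against 240 (42.8%, 38.7% to 46.9%) that passed EZH2 on a single side. The remaining 5 passed it on neither side and had outside length only between EZH2 peaks. With a side counted only from 400 bp, 44.9% of the 561 peaks extended on both sides, and from 1000 bp 26.4% did. By reach, 122 of the 872 extended sides passed EZH2 by 200 bp and 277 by 400 to 800 bp. Without the sides of 200 bp, both forms were about equally common. From 1000 bp, single-sided extension was the more common form, so the order depends on the limit. Peaks that extended on both sides held 79.1% of all the outside length, single-sided ones 19.3% and the other 5 peaks 1.62%. Summing the reach of both sides favours the first of these shares. Across the 872 extended sides the median reach was 1000 bp (quartiles 600 and 1800 bp), and the longest was 10600 bp. Left and right sides had the same median of 1000 bp, over 428 and 444 sides. A reach of 5 kb or more was rare, with 13 sides of 5.0 to 9.8 kb and 1 longer side.

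In peaks that passed EZH2 on both sides, the arms were often unequal. The longer arm had a median of 1600 bp and the shorter one 800 bp, and the median ratio of longer to shorter was 1.73 (quartiles 1.25 and 3.0). The arms were within 1 bin of each other in 94 of 316 peaks (29.7%), and in 90 (28.5%) the longer arm was at least 3 times the shorter. The longer arm was on the left in 136 peaks and on the right in 148, and 32 had equal arms. Peaks with a long left arm tended to have a long right arm too, with Spearman rho = 0.44 and Pearson r = 0.42 over 316 peaks. Both arms of a peak come from 1 H3K27me3 call and 1 library, so a peak called more broadly lengthens both, and these coefficients are a description only.

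Single-sided peaks were mostly shifted against EZH2 instead of flush with it on the other side. In 168 of 240 (70.0%, interval 63.9% to 75.4%) the other edge stopped short of the EZH2 edge, by a median of 800 bp (quartiles 400 and 1800 bp). In 72 (30.0%) the other edge coincided with it. The extension itself was short in both kinds, with a median of 600 bp in each. It was on the left in 112 peaks and on the right in 128. Single-sided peaks were narrower than those that extended on both sides, with a median width of 4600 against 7000 bp, whereas the EZH2 peaks beneath them had median summed widths of 4600 and 4200 bp. Peaks that pass EZH2 on both sides cover it from end to end by definition, so the classes themselves favour this difference in width. In the plot of both edges, single-sided peaks with a short other edge lie in the upper left and lower right quadrants. Those with a flush other edge lie on the axis lines.

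**Figure D2:**
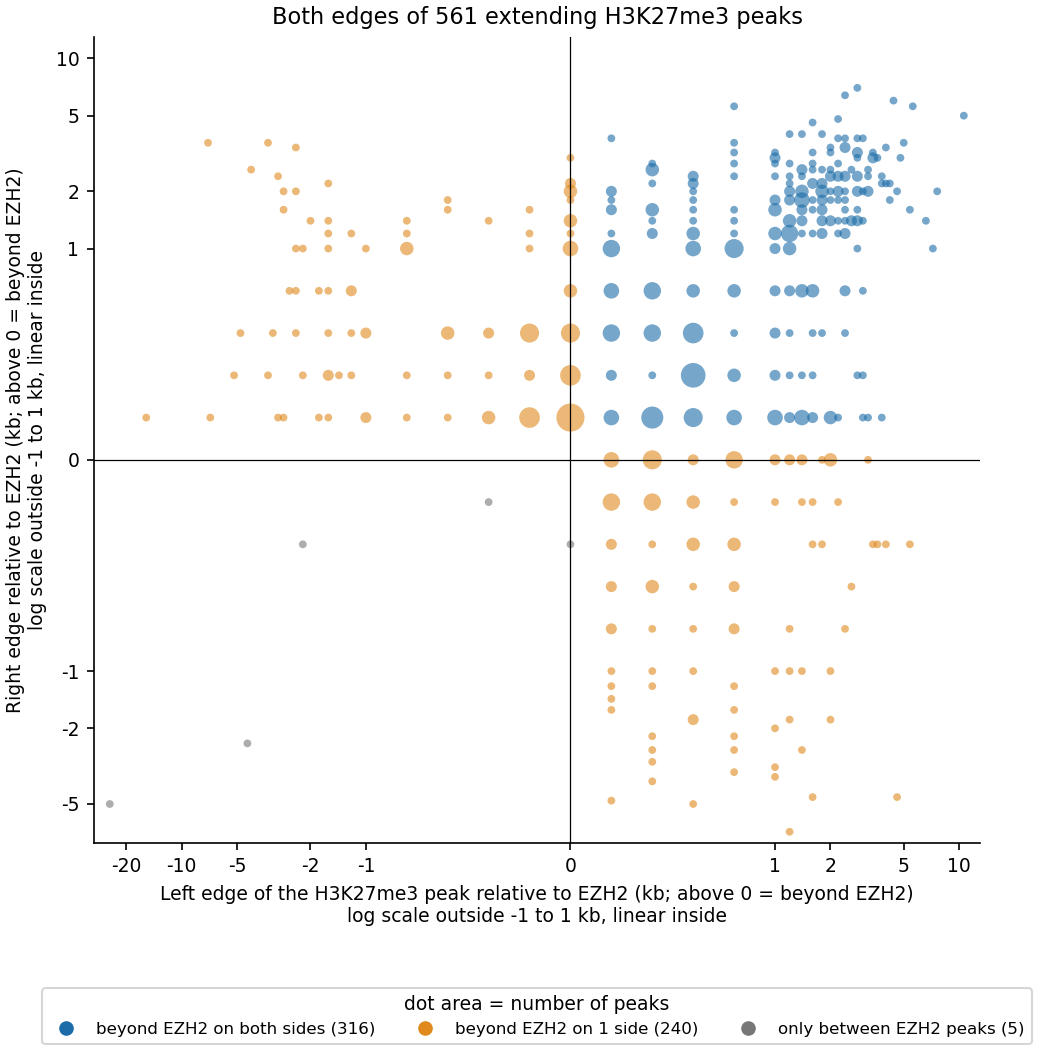
Position of the left edge (x axis) and the right edge (y axis) of each of the 561 extending H3K27me3 peaks relative to the outer edge of the EZH2 peaks it meets, in kb, with a scale that is linear within 1 kb of EZH2 and logarithmic beyond. Values above 0 lie beyond EZH2, dot area is the number of peaks, and 316 peaks are in the upper right quadrant, where both edges lie beyond EZH2.

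Single-sided extension toward the closer neighbouring EZH2 peak was about as frequent as extension away from it. Of 239 single-sided peaks with an EZH2 neighbour on either side, 114 extended toward the nearer one (47.7%, interval 41.5% to 54.0%). Past the extended edge the next EZH2 peak was a median of 220.4 kb away, and past the other edge 195.2 kb. Counting all peaks, another EZH2 peak lay within 5 kb of 46 of 872 extended edges (5.28%) and of 13 of 250 edges that were not extended (5.20%). The arms thus mostly ended far from any other called EZH2 site.

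Bridging was uncommon and involved wide peaks. In 22 extending peaks (3.92%, interval 2.60% to 5.87%; 2.32% of all 948 that met EZH2), 1 H3K27me3 peak spanned 2 or more EZH2 peaks. A bridging peak always has outside length, since no EZH2 peaks in the list adjoin. Of the 22, 20 joined 2 EZH2 peaks, 1 joined 3 and 1 joined 4. Their median width was 18.7 kb, against 5.8 kb for the 539 that met 1 EZH2 peak, and their median length outside EZH2 was 7.4 against 1.4 kb. A bridging peak covers a gap of at least 2200 bp, so the definition favours both differences. Past the outermost EZH2 edges alone, the median length of the 22 was 2.8 kb. Both sides were extended as well in 10 of them, a single side in 7 and neither in 5. The 47 EZH2 peaks beneath them, taken singly, had a median width of 5.2 kb, against 4.2 kb for the EZH2 peaks of the 539.

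Most gaps that H3K27me3 bridged were short: 20 of 25 were 5.0 kb or less. They had a median of 3000 bp (quartiles 2400 and 4400 bp), and the widest was 8400 bp. Most close EZH2 pairs were not bridged. Of 153 neighbouring pairs 2.2 to 3.0 kb apart, 96 had H3K27me3 on neither peak and 41 on 1 only. The other 16 had it on both, and in 13 of them (81.3%, interval 57.0% to 93.4%) 1 H3K27me3 peak covered the gap. A bridged pair has H3K27me3 on both peaks by definition, so all shares given here are of pairs with both marked. For gaps of 3.2 to 5.0 kb, 7 of 17 such pairs were bridged (41.2%, 21.6% to 64.0%), out of 169 pairs in all. For gaps of 5.2 to 10.0 kb, 5 of 16 were (14.2% to 55.6%), out of 283 in all. In the wider classes, none of 16 pairs at 10.2 to 20 kb and none of 27 at 20.2 to 50 kb was bridged, which allows shares of up to 18.75% and 11.1% when 3 counts are taken as the limit of a count of 0 (Wilson upper limits 19.4% and 12.5%). The H3K27me3 list holds no peaks less than 1200 bp apart, and the part that joining of neighbouring calls had in this order was not tested.

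**Figure D3:**
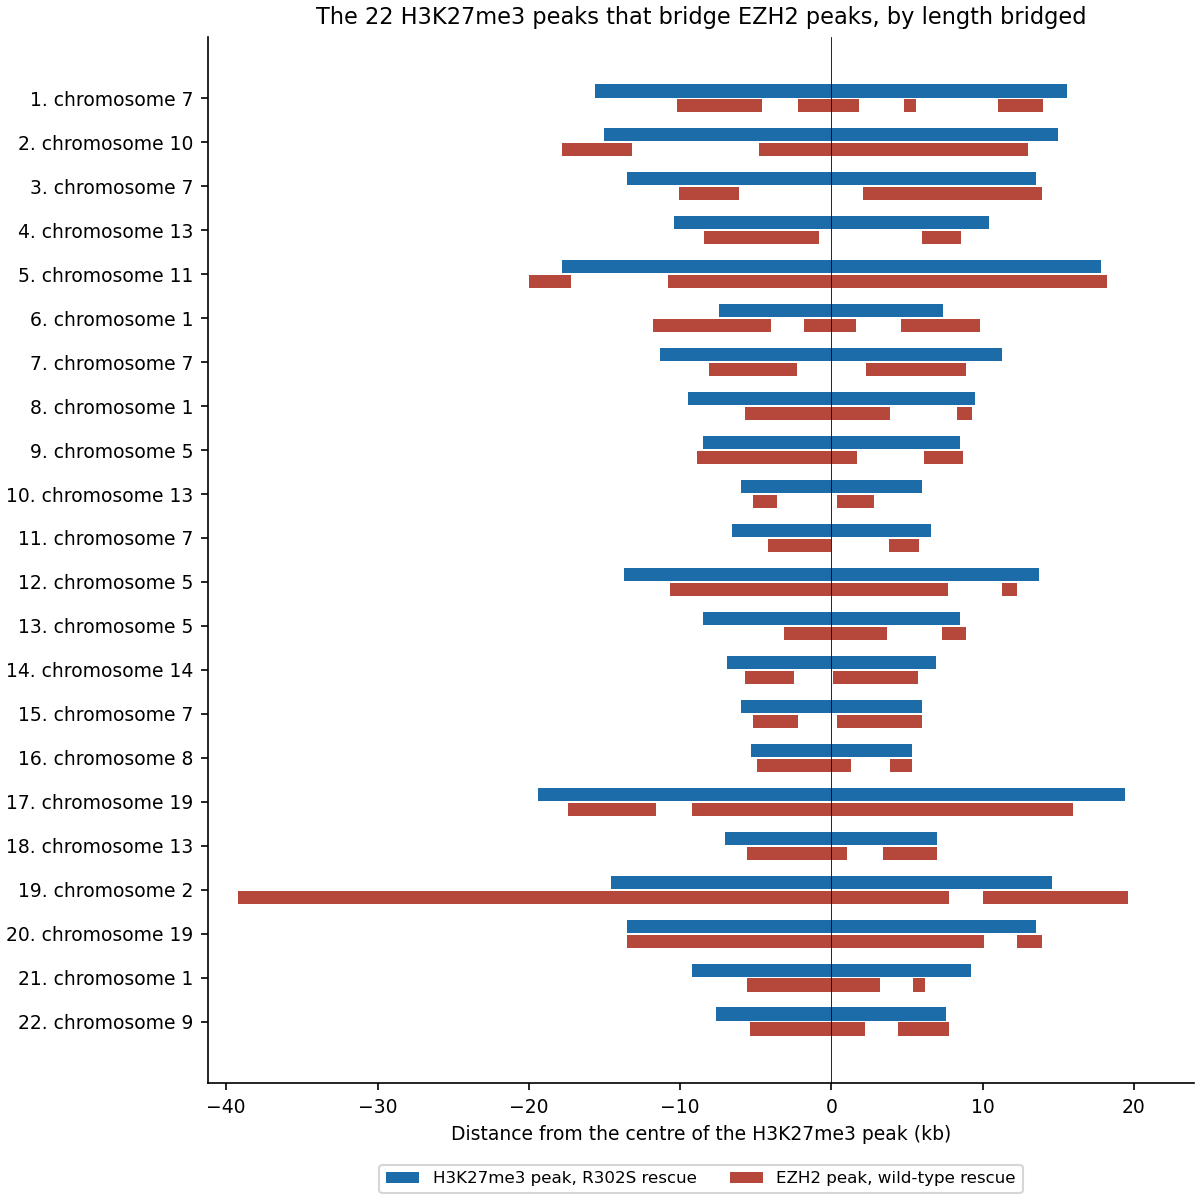
Map of the 22 H3K27me3 peaks of the R302S rescue (blue) that bridge EZH2 peaks of the wild-type rescue (red), ordered by the length bridged, with distance from the centre of the H3K27me3 peak in kb on the x axis. The top peak joins 4 EZH2 peaks and the sixth joins 3. In the 19th the EZH2 peak on the left runs 24.6 kb past the H3K27me3 edge.

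The peak with the most EZH2 peaks beneath it was also the longest extension. On chromosome 7 (86673601 to 86704800, 31.2 kb) it joined EZH2 peaks of 5.6, 4.0, 0.8 and 3.0 kb, with 10.8 kb in the gaps between them. It also reached 5.4 kb to the left and 1.6 kb to the right, so that 17.8 kb (57.1% of its width) lay outside EZH2. A bridging neighbour on the same chromosome (86732601 to 86745800), picked out after its values were seen, joined EZH2 peaks of 4.2 and 2.0 kb across a gap of 3.8 kb. Without the longest peak, the share of outside length that lay between EZH2 peaks was 6.81% instead of 7.57%.

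Other bridging peaks differed in whether they also passed the outer EZH2 edges. The peak that joined 3 EZH2 peaks, on chromosome 1 (63306601 to 63321400, 14.8 kb), stopped 4.4 kb short of EZH2 on the left and 2.4 kb short on the right, so that its 5.2 kb outside EZH2 were all between EZH2 peaks. The longest single gap, 8.4 kb, was bridged on chromosome 10 (42287201 to 42317200), between EZH2 peaks of 4.6 and 17.8 kb. A gap of 8.2 kb was bridged on chromosome 7 (25712201 to 25739200), where the peak also reached 3.4 kb to the left and had 11.6 kb outside in all. On chromosome 13 (95635801 to 95656600) a gap of 6.8 kb was bridged, with arms of 2.0 and 1.8 kb. On chromosome 11 (98168001 to 98203600) a gap of 6.4 kb was bridged between EZH2 peaks of 2.8 and 29.0 kb, with neither outer edge passed.

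Long extension also occurred where H3K27me3 met a single EZH2 peak. The 10 peaks with the most outside length lay on 7 chromosomes, and 5 of them met 1 EZH2 peak only. The longest of these was on chromosome 2 (165047201 to 165070600, 23.4 kb). Its EZH2 peak of 7.8 kb (165057801 to 165065600) was passed by 10.6 kb on the left, the longest single arm of all, and by 5.0 kb on the right. The nearest other EZH2 peaks were 1366.6 kb to its left and 122.8 kb to its right.

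Among these 10, the arms were equal on chromosome 5 (118610801 to 118630600), where an EZH2 peak of 8.6 kb was passed by 5.6 kb on both sides. On chromosome 16 (91216401 to 91234800) the arms past an EZH2 peak of 8.0 kb were 4.4 and 6.0 kb. Others were lopsided. On chromosome 6 (85127401 to 85145600) an EZH2 peak of 8.6 kb was passed by 7.6 kb on the left and 2.0 kb on the right. A second peak of chromosome 6 (52257201 to 52272400) passed an EZH2 peak of 5.4 kb by 2.8 and 7.0 kb, and its left edge stopped 0.2 kb from the next EZH2 peak, the closest approach of an extended edge to another EZH2 peak. A bridging peak on chromosome 7 (138680801 to 138703400) had arms of 3.2 and 2.4 kb and 10.2 kb outside in all.

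**Figure D4:**
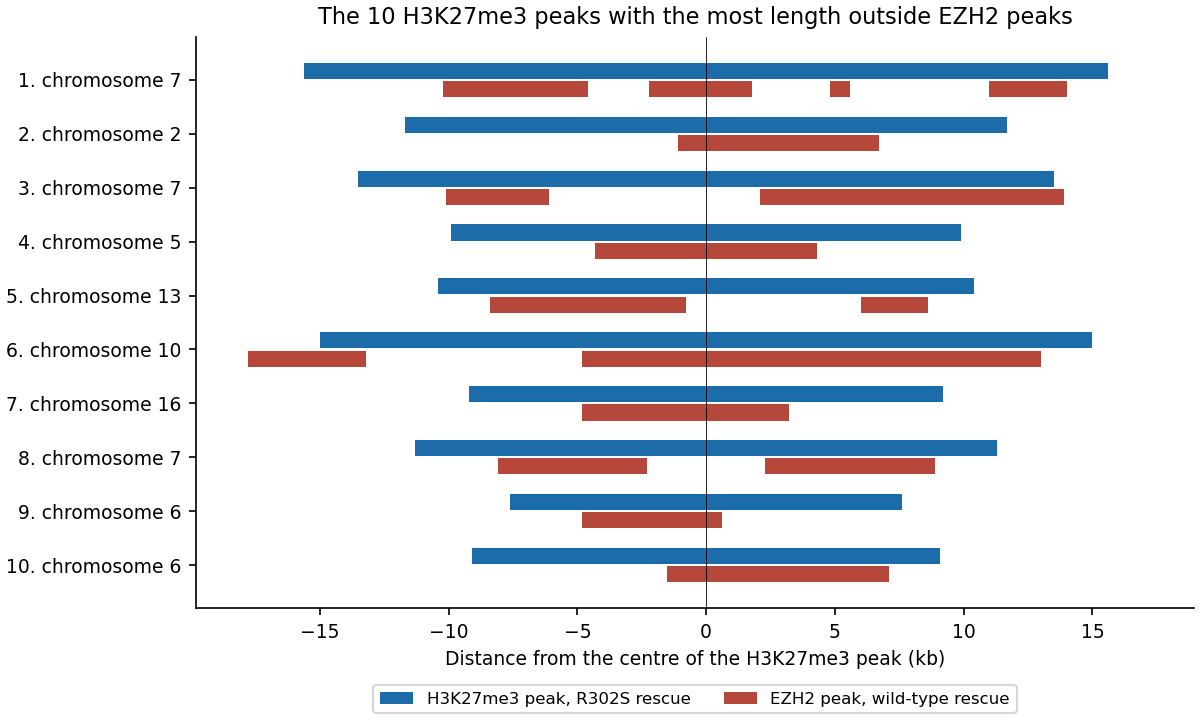
Map of the 10 H3K27me3 peaks of the R302S rescue (blue) with the most length outside EZH2 peaks of the wild-type rescue (red), with distance from the centre of the H3K27me3 peak in kb on the x axis. The first, on chromosome 7, has 17.8 kb outside EZH2 and the tenth, on chromosome 6, has 9.6 kb.

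Some long extensions lay at narrow EZH2 peaks. On chromosome 17 (66794201 to 66801000) an EZH2 peak of 0.8 kb, the narrowest width in the list, lay under an H3K27me3 peak of 6.8 kb, which is 8.5 times as wide. On chromosome 2 (174145801 to 174155200) an EZH2 peak of 1.2 kb was passed by 7.2 kb on the left and 1.0 kb on the right. On chromosome 19 (25679401 to 25689600) an EZH2 peak of 1.6 kb was passed by 5.0 and 3.6 kb. On chromosome 10 (86948601 to 86958400) an EZH2 peak of 1.8 kb was passed by 6.6 and 1.4 kb. Over all extending peaks, 450 of 561 (80.2%) were wider than the EZH2 peaks they met, and 90 (16.0%) were at least 2 times as wide. In 388 (69.2%) the H3K27me3 peak spanned its EZH2 peaks from end to end.

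The EZH2 peaks beneath extending H3K27me3 peaks were no wider than those beneath peaks that stayed inside. Their summed width had a median of 4400 bp in both (quartiles 2800 and 7000 bp for the 561 extending peaks, 3000 and 7200 bp for the 387 inside). The H3K27me3 peaks themselves had median widths of 6000 and 2200 bp. The definition favours wide H3K27me3 peaks among the extending ones, so this difference is a description. Within EZH2, extending peaks covered a median of 4000 bp and peaks wholly inside 2200 bp. Their surroundings were alike in this respect too: the nearest other EZH2 peak was a median of 97.8 kb away (interval 73.0 to 128.2 kb) from extending peaks and 88.2 kb (59.8 to 122.2 kb) from those inside.

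Whether a peak extended varied little with the width of its EZH2 site, except at the narrowest sites. Of 45 H3K27me3 peaks that met 800 to 1400 bp of EZH2, 36 extended (80.0%, interval 66.2% to 89.1%). The share was 61.8% of 123 peaks at 1600 to 2400 bp and 56.1% (50.4% to 61.6%) of 296 peaks at 2600 to 4200 bp. It was 58.4% of 245 at 4400 to 7000 bp and 58.6% (52.2% to 64.6%) of 239 at 7200 bp or more. Fewer H3K27me3 peaks can fit inside a narrow EZH2 peak, so the definition itself favours a high share there. How far the extending peaks reached was greater at wide sites, with a median per extended side of 800 bp in each of the first 3 width classes, 1200 bp in the fourth and 1800 bp in the widest. As a share of the H3K27me3 peak the order was the opposite, from a median of 51.7% outside at the narrowest sites to 20.6% at the widest. Over all 561 peaks the summed EZH2 width and the length outside had Spearman rho = 0.25 and Pearson r = 0.25, and rho = 0.19 and r = 0.15 over the 539 with 1 EZH2 peak. The points share both libraries and the bins, and the coefficients carry no test.

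**Figure D5:**
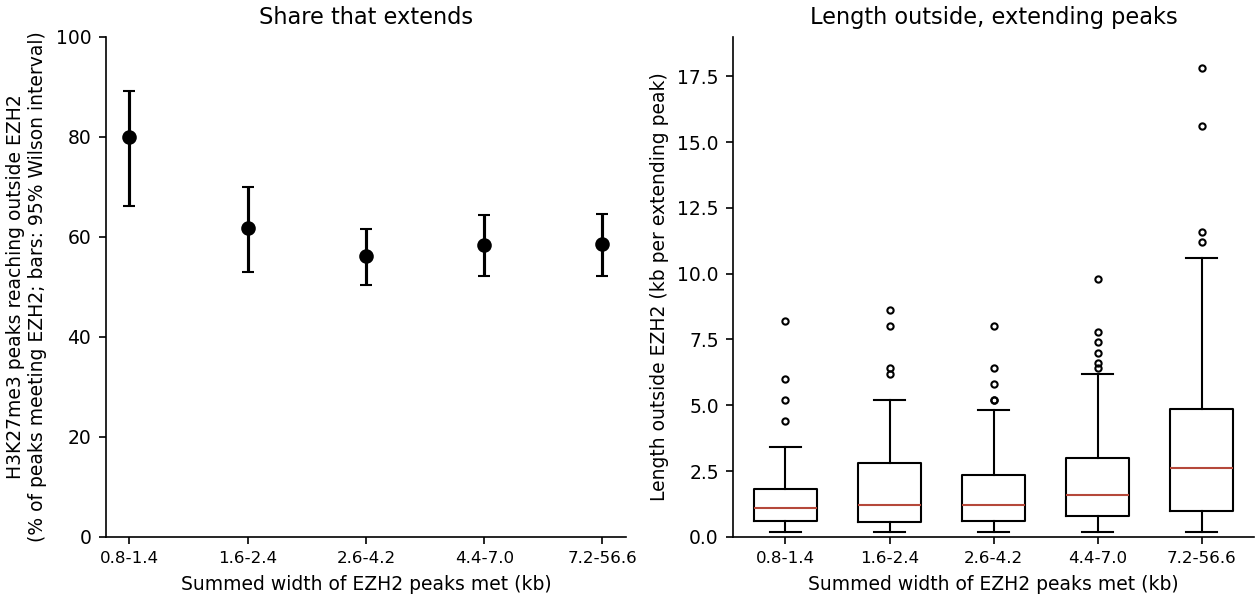
Left, share of H3K27me3 peaks meeting EZH2 that reach outside it (points, in percent, with 95% Wilson intervals) by the summed width of the EZH2 peaks met, in kb. Right, length outside EZH2 of the extending peaks in the same width classes, in kb (boxes are quartiles, the line the median, whiskers reach to the last value within 1.5 times the box, circles lie beyond); the median goes from 1.1 kb in the narrowest class to 2.6 kb in the widest.

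Extending peaks were found on the 19 autosomes and X. Chromosome 11 had the most, 58 of 92 H3K27me3 peaks that met EZH2 (63.0%). Chromosome 5 followed with 54 of 81 (66.7%) and chromosome 2 with 53 of 85 (62.4%). These shares were near the 59.2% over all chromosomes, so the counts mainly follow how many peaks met EZH2. As a share of the H3K27me3 peaks that met EZH2, they were most frequent on chromosome 7 (45 of 54, 83.3%, interval 71.3% to 91.0%) and least frequent on chromosome 17 (15 of 41, 36.6%, 23.6% to 51.9%), X (6 of 16, 37.5%) and chromosome 8 (22 of 55, 40.0%). Chromosome 5 had 12 of the 56 peaks with over 5 kb outside and the most outside length, 164.2 kb. Chromosome 7 had 5 of the 22 bridging peaks. Chromosomes 4, 8, 14 and X, with 42, 22, 14 and 6 extending peaks, had none with over 5 kb outside. The share over all 561 was 9.98%, so an absence among so few peaks says little. Chromosomes are not replicates, the extremes were picked out of 20 after their values were seen, and the difference between them was not tested.

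Extending peaks mostly stood alone. With neighbours within 100 kb joined into groups, 454 of the 561 had no other extending peak in their group, 44 groups held 2, 5 held 3 and 1 held 4. The group of 4, picked out after its values were seen, spanned 109.6 kb of chromosome 1 (74897401 to 75007000) and included bridging peaks with 8.4 and 8.8 kb outside EZH2. A group of 3 on chromosome 7 (86642401 to 86745800), also picked out afterwards, held the longest extension and its bridging neighbour, and its 28.0 kb of outside length was the most in any group. Peaks in a group share their surroundings and are not independent sites.

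Near the limits of the definition, 54 extending peaks (9.63%) lay outside EZH2 by 1 bin of 200 bp. Just on the other side of that limit, 92 of the 387 peaks inside EZH2 (23.8%) were flush with an EZH2 edge. For the overlap itself, 2 extending peaks shared only 200 bp with EZH2. Among the 278 peaks that met no EZH2 peak, 3 lay within 2 kb of one, the closest of them adjoining it at 0 bp.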

How the data were processed

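Each list holds the start and end of peaks as deposited, with no score, signal or p-value. The submitters' processing notes name Bowtie 1.0.0 and deepTools, with mm9 as the build. How peaks were called, and against which control, is not given in the sources used here. Depth is unknown. Ends were raised by 1, which makes all widths multiples of 200 bp.

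Reach was computed with Python 3.11.15, numpy 2.4.6 and pandas 2.3.3. Edges were measured against the outermost EZH2 peaks that each H3K27me3 peak met. bedtools 2.31.1 gave the same 561 peaks and 1262800 bp outside, and all 1143 simulated peaks of known reach were recovered. Bridging was simulated for pairs of EZH2 peaks only, and the distance by which an edge stopped short was not checked. Wilson intervals and order-statistic intervals of medians (95%, scipy 1.17.1) cover counting error within 1 library only. With 1 library per group there is no test between conditions and no p-value.

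The extending peaks and the lists were chosen with earlier results of these data known. Regions named are the 10 with the most length outside, the 5 longest arms, the 5 that bridge the most EZH2 peaks, the 5 longest gaps bridged, the 3 longest shorter arms and the 3 largest width ratios; others are said to be picked later. No genes are named and no sequence is printed, because the tables at hand are of GRCm38. Alternatives were other overlap and reach limits, joined or wider EZH2 peaks, matched list limits and autosomes only. Figures were drawn with matplotlib 3.10.9.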

Additional observations from a re-analysis of the deposited data

How the results depend on the processing

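The count of 561 extending peaks stayed within 1.5 times (377 to 561) in the alternatives run. The lowest count was for at least 1000 bp outside, the strictest reach limit among them. A stricter limit can only lower the count, and 236 peaks had at least 2000 bp outside. The medians of 1400 bp per peak and 1000 bp per extended side stayed inside their intervals in the alternatives where they were computed. The medians were not computed under the other overlap and reach limits, and a stricter reach limit raises the median per peak by construction. The share extending on both sides, 56.3%, was 44.9% when a side had to pass EZH2 by 400 bp and 26.4% by 1000 bp. Both are shares of the same 561 peaks, so stricter limits can only lower them. Extension on both sides was about as common as single-sided extension from 400 bp, and less common than it from 1000 bp. With EZH2 peaks within 5 kb joined, the share that bridged was 0.921% instead of 3.92%, since joining removes the gaps. The share of outside length between EZH2 peaks, 7.57%, was then 3.04%. It was 8.93% with H3K27me3 peaks brought to the minimum gap and width found for EZH2, 7.60% on autosomes, 6.30% against the wider 50% of EZH2 peaks and 6.81% without the longest peak. No paired analysis was possible because no group had more than a single library, which also means that leaving out a replicate could not be tried. Unknown depth leaves reach below either list's threshold unassessed.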
